A study of Schizosaccharomyces pombe with 30 samples.

Results

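The subtelomeres of chromosome II of the fission yeast Schizosaccharomyces pombe, outside the gene tlh2, were described by H3K9me2 ChIP-seq in 189 windows of 300 bp, of 1500 windows in the whole series. A window was taken if it lay within the outer 100 kb of either end of chromosome II and did not overlap tlh2 by at least 150 bases. The left end gave 69 windows and the right end 120, of which 99 lay on the centromere side of tlh2 and 21 between tlh2 and the chromosome end. Another 20 windows of tlh2 itself served for comparison only. Each end has 333 possible window positions in 100 kb, and the authors kept only windows with an abundance over 1.7 times the global median. A window high in wild-type alone could pass that filter, so counts over the kept windows describe those windows and not the whole ends. The 2520 bins of 5 kb had no such filter, and 17 of them overlapped the 189 windows.

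The mutants were Δfkh2 (fkh2::natMX), Δprw1 (prw1::kanMX), clr6-1 (a hypomorphic allele of clr6) and clr3-D232N (clr3-D232N:natMX, a catalytically dead allele), each set against wild-type. All 5 genotypes, wild-type included, shared the MAT ΔREIII background (listed as h90 for clr6-1, clr3-D232N and wild-type), in which the s1 and s2 sites of the REIII element are deleted and 3 reporters are present: cenH::ade6p:SF-GFP, mat3m::ade6p:mKO2 and ade6p:3xE2C:hygMX at Locus2. Cells were grown in YES medium at 32°C. The tables hold 13 libraries, named by replicate letter: A to C for the 2 deletions and for clr3-D232N, A and B for clr6-1, and B and C for wild-type. The study's methods call them biological replicates. Their 5 kb bins summed to between 4408669 and 12641248 counts, and the 189 windows held from 2.05% to 7.13% of that sum. Replicate B was the highest library of Δfkh2, Δprw1 and wild-type at most of the stretches below. The regions around fkh2 and prw1 were taken out of the tables by the authors, and point mutations leave no trace in window counts, so the genotypes were not checked here against the targeted genes. In bulk ChIP, fewer cells that carry the mark and less of the mark per cell cannot be told apart.

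H3K9me2, dimethylation of lysine 9 of histone H3, marks heterochromatin and is deposited by the methyltransferase Clr4. Heterochromatin starts at nucleation sites and spreads outward, and at subtelomeres the tlh helicase genes hold sequence related to the centromeric repeats and act as nucleation sites. Clr6 is a histone deacetylase, Prw1 is a subunit of Clr6 complexes, Fkh2 is a forkhead transcription factor, and Clr3 is the histone deacetylase of the SHREC complex.

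Most of the sequence of these subtelomeres occurs more than once in the genome. Of the left windows, 69 of 69 had a copy elsewhere at 95% identity or more over at least 150 bases, and of the right windows 104 of 120 did, with every such copy at an end of chromosome I or II. The outer 10149 bases of the left end (chrII:1-10149) are 100% identical, on the opposite strand, to chrII:4502775-4512923, which ends 26.9 kb from the right end. The next stretch, chrII:10180-20843, is 99.6% identical to chrII:4492121-4502784, and chrII:4519864-4532546 around tlh2 is 99.8% identical to the left end of chromosome I. No filter on mapping quality is given for the window counts, so a fragment from one copy may have been counted at another. The sequences below are from the RefSeq assembly ASM294v3, plus strand, 5′ to 3′, and each belongs to a window whose value the results turn on.
In the left-arm window lowest against wild-type in Δprw1, clr6-1 and clr3-D232N (chrII:4801-5100), capitals mark the annotated LTR, the terminal repeat of a retrotransposon.
Left LTR window: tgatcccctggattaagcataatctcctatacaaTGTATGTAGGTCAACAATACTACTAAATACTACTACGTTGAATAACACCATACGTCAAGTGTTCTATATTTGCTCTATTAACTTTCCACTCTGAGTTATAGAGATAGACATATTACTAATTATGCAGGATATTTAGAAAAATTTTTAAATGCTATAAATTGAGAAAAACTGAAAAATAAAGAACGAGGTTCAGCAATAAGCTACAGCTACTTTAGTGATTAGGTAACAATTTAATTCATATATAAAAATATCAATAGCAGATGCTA
In the window chrII:4518601-4518900, 7984 bases from tlh2, capitals mark the 7 bases that differ from its 97.7% identical copy inside tlh2 (chrII:4529505-4529800, minus strand).
tlh2 copy window: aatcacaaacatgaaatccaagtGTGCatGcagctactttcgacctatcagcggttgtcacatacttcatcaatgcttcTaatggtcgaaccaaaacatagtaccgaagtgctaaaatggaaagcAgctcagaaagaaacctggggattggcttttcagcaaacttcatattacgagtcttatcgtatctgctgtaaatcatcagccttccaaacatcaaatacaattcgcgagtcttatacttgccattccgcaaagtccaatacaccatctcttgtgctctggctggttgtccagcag
The window with the highest log2 fold change in clr6-1 lies in the malic enzyme pseudogene SPBCPT2R1.07C (chrII:4523701-4524000). No base is in capitals, since 0 bases differ from its copy at chrI:8548-8847 (minus strand).
Malic enzyme pseudogene window: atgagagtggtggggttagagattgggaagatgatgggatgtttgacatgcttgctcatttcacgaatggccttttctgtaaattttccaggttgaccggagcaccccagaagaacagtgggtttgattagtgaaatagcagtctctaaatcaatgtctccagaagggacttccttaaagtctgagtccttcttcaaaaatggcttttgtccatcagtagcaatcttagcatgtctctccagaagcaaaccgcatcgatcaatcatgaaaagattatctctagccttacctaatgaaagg
In the window of lowest GC content, 15.7%, which lies between tlh2 and the right end (chrII:4536001-4536300) and had no copy, capitals mark G and C.
Low GC window: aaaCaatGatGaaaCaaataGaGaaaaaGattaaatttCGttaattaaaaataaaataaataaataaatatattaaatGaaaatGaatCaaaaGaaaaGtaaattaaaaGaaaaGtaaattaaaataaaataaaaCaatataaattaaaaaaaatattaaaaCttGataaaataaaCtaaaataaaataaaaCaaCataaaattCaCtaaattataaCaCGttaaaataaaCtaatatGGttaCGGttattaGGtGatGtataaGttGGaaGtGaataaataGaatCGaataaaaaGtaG

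The base composition of the windows was close to that of the rest of the table. The median GC content was 34.3% on the left and 32.7% on the right, against 34.7% over the other 1246 windows of the 3 chromosomes. The forkhead-type motif GTAAACA, searched on both strands, occurred in 10 of 69 left windows (14.5%) and 10 of 120 right windows (8.33%). It occurred in 6.02% of the other 1246 windows and in 9.16% of all 41905 stretches of 300 bp of the 3 chromosomes. A match of these 7 letters is a description of the sequence and not a binding site.

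On the left arm, H3K9me2 was lower in all 4 mutants. The mean normalized count per window, counts being divided by a size factor for each library, was 241, 535 and 332 in Δfkh2. It was 140, 189 and 121 in Δprw1, 242 and 264 in the clr6-1 libraries, and 210, 170 and 160 in clr3-D232N, against 2260 and 1306 in wild-type. No mutant library reached the lower wild-type library. The log2 difference of the summed counts was -2.30 in Δfkh2 and -3.54 in Δprw1, which is 20.3% and 8.6% of the wild-type level. It was -2.76 in clr6-1 and -3.27 in clr3-D232N, or 14.7% and 10.4%. The order of the mutants depended on the scaling: by total count the differences were -1.48 for Δfkh2, -2.88 for Δprw1, -2.90 for clr6-1 and -2.18 for clr3-D232N, and under TMM on the windows, a scaling by the trimmed mean of M values, they were -1.10, -2.03, -2.64 and -1.45. Two-sided exact permutation tests gave p = 0.1 for the mutants with 3 libraries and p = 0.33 for clr6-1, the smallest values these designs allow.

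**Figure D1:**
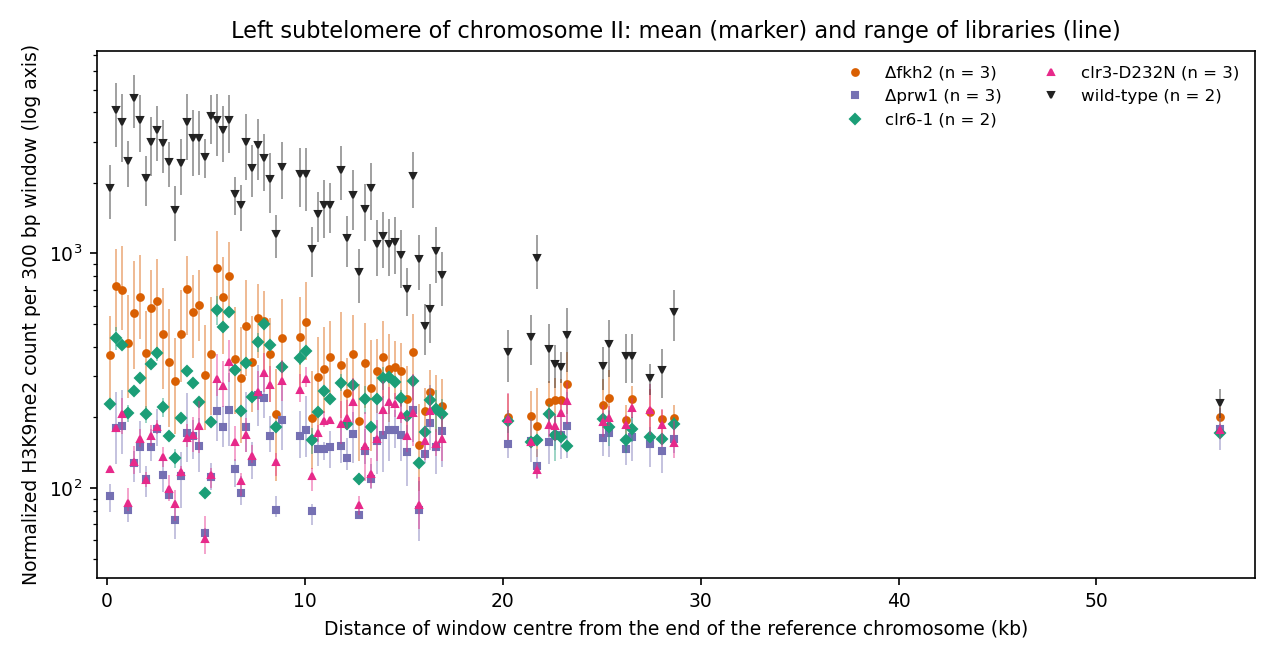
Normalized H3K9me2 count (log axis) of the 69 left-arm windows by distance from the left end of the reference chromosome; markers are genotype means and lines the range of libraries. All 4 mutants lie below wild-type over the outer 20 kb and closer to it beyond.

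On the left arm the signal of Δprw1 and clr3-D232N was flat, while that of wild-type declined inward. Within 10 kb of the end the 32 windows averaged 497 ± 225 in Δfkh2, 148 ± 36 in Δprw1 (SD, n = 3 each), 310 ± 14 in clr6-1 (SD, n = 2) and 180 ± 25 in clr3-D232N (SD, n = 3), against 2796 ± 1072 in wild-type (SD, n = 2). At 20 to 30 kb the 14 windows averaged 220 ± 51 for Δfkh2, 158 ± 33 for Δprw1, 174 ± 18 for clr6-1 and 189 ± 28 for clr3-D232N, against 423 ± 144 in wild-type. The inner windows of Δprw1 and clr3-D232N were no lower than the outer ones. The log2 differences at 20 to 30 kb were -0.93, -1.40, -1.24 and -1.13 in the 4 mutants in that order, and those of Δfkh2, Δprw1 and clr3-D232N turned positive (0.27, 0.12 and 0.68) under TMM on the windows. That scaling moves the median of all windows by 1.13, 1.5, 0.16 and 1.89 on the log2 scale. Within each library, the log2 ratio of windows beyond 20 kb to those within 20 kb was -0.58, -1.17 and -0.78 in Δfkh2, 0.14, 0.07 and 0.15 in Δprw1, -0.71 and -0.62 in the clr6-1 libraries, and 0.06, 0.15 and 0.04 in clr3-D232N, against -2.44 and -2.34 in wild-type. The mutant libraries did not overlap those of wild-type in this ratio (exact permutation p = 0.1, and 0.33 for clr6-1, again the smallest possible). The innermost left window lay 56.1 kb from the end in fex2, which encodes a plasma membrane fluoride export channel. It held 177, 206 and 222 normalized counts in Δfkh2, 172, 220 and 145 in Δprw1, 173 and 170 in the clr6-1 libraries, and 184, 187 and 161 in clr3-D232N, against 264 and 199 in wild-type. The 2 deletions overlapped wild-type there, and the window was not called in any mutant.

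A window was called where edgeR's quasi-likelihood test gave a Benjamini-Hochberg adjusted p below 0.005 over all 1500 windows and the log2 fold change was beyond 1. On the left arm 57 of 69 windows were called lower in Δfkh2 (36.0% of all windows tested), 66 in Δprw1 (48.3%), 59 in clr6-1 (36.4%) and also 59 in clr3-D232N (64.9%). On the right arm 73 of 120 were called lower for Δfkh2, 94 for Δprw1, 71 for clr6-1 and 105 for clr3-D232N. None was called higher in any mutant by edgeR or by DESeq2, and 0 were higher at an unadjusted edgeR p below 0.05. Of all windows edgeR called 0.133% higher for Δfkh2, 0.0667% for Δprw1, 0.4% for clr6-1 and 0.867% for clr3-D232N. Windows in which all mutant libraries lay below both wild-type libraries numbered 162 of 189 for Δfkh2 (65.1% of all windows), 179 for Δprw1 (59.1%), 156 for clr6-1 (44.9%) and 188 for clr3-D232N (75.3%). All clr6-1 libraries lay above wild-type in 21 windows, all on the right arm (30.7% of all windows), and 0 windows did so in Δfkh2 (2.47%), Δprw1 (3.13%) or clr3-D232N (6.6%). The median log2 fold change over both arms was -2.18 in Δfkh2 against -1.38 over all windows, -3.57 against -1.53 in Δprw1, -2.49 against 0.02 in clr6-1, and -3.37 against -2.46 in clr3-D232N. The Δfkh2 counts depended most on the fit, since only 4 left and 4 right windows were called with Δfkh2 and wild-type alone in the model. Without wild-type replicate B the Δfkh2 counts were 37 and 37, and without clr6-1 replicate A the clr6-1 counts were 39 on the left and 44 on the right.

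The window lowest against wild-type on the left arm in 3 mutants was the LTR window chrII:4801-5100. It held 58.9, 66.6 and 67.5 normalized counts in Δprw1, 92.9 and 96.8 in the clr6-1 libraries, and 52.4, 53.3 and 75.8 in clr3-D232N, against 3073 and 2100 in wild-type. The log2 fold changes were -5.33 ± 0.51, -4.77 ± 0.60 and -5.41 ± 0.51 (SE), with edgeR adjusted p of 3.9e-23, 3.4e-13 and 9.6e-24. In Δfkh2 the lowest was its neighbour chrII:5101-5400, at 204, 652 and 265 against 4755 and 2933 in wild-type (log2 fold change -3.36 ± 0.52, edgeR adjusted p = 6.4e-09). The called windows nearest to no change lay 21.3 to 26.1 kb from the end, with values of -1.11 for Δfkh2, -1.02 for Δprw1, -1.18 for clr6-1 and -1.03 for clr3-D232N. Under TMM on the windows the direction of all but the clr6-1 value turned.

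The arms were not independent measurements. In the block that is identical between the arms, which holds 31 windows on each, the log2 ratio of the left copy to the right copy lay between -0.02 and 0.02 in all 13 libraries. The mean per window was 497 ± 225 on the left and 497 ± 226 on the right in Δfkh2, 147 ± 35 and 146 ± 33 in Δprw1, 307 ± 14 and 310 ± 18 for clr6-1, and 176 ± 25 and 176 ± 26 in clr3-D232N, against 2816 ± 1077 and 2789 ± 1058 in wild-type. Fragments from these copies cannot be told apart, so the left-end levels may hold fragments from the right arm and the ends of chromosome I. The 14 left windows with no copy on the right averaged 220 ± 49 for Δfkh2, 160 ± 33 for Δprw1, 172 ± 15 for clr6-1 and 187 ± 25 for clr3-D232N, against 413 ± 138 in wild-type. Their log2 differences of -0.89, -1.35, -1.22 and -1.11 were smaller than those of the whole arm, and all but that of clr6-1 turned positive under TMM on the windows (0.31, 0.17 and 0.71). Of these 14 windows 3, 11, 5 and 5 were called lower, against 36.0%, 48.3%, 36.4% and 64.9% of all windows.

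The right arm held the highest levels, next to tlh2, and there clr6-1 stood apart from the other mutants. Over all 120 right windows the mean normalized count was 1111, 2589 and 1102 in Δfkh2, 508, 1312 and 694 in Δprw1, 3421 and 3416 in the clr6-1 libraries, and 472, 522 and 601 in clr3-D232N, against 5674 and 3335 in wild-type. The clr6-1 libraries lay between the wild-type libraries, while all libraries of the other mutants lay below both. The log2 differences were -1.57 in Δfkh2 (exact permutation p = 0.2), -2.49 in Δprw1 (p = 0.1), -0.35 in clr6-1 (p = 1.0) and -3.04 in clr3-D232N (p = 0.1). The clr6-1 difference was 0.04 without wild-type replicate B and -0.73 without replicate C. By total count the differences of the mutants in the same order were -0.75, -1.84, -0.48 and -1.95. Under TMM on the windows they were -0.37, -0.98, -0.23 and -1.23. The distance of clr6-1 from the other mutants over the whole arm thus depended on the scaling.

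**Figure D2:**
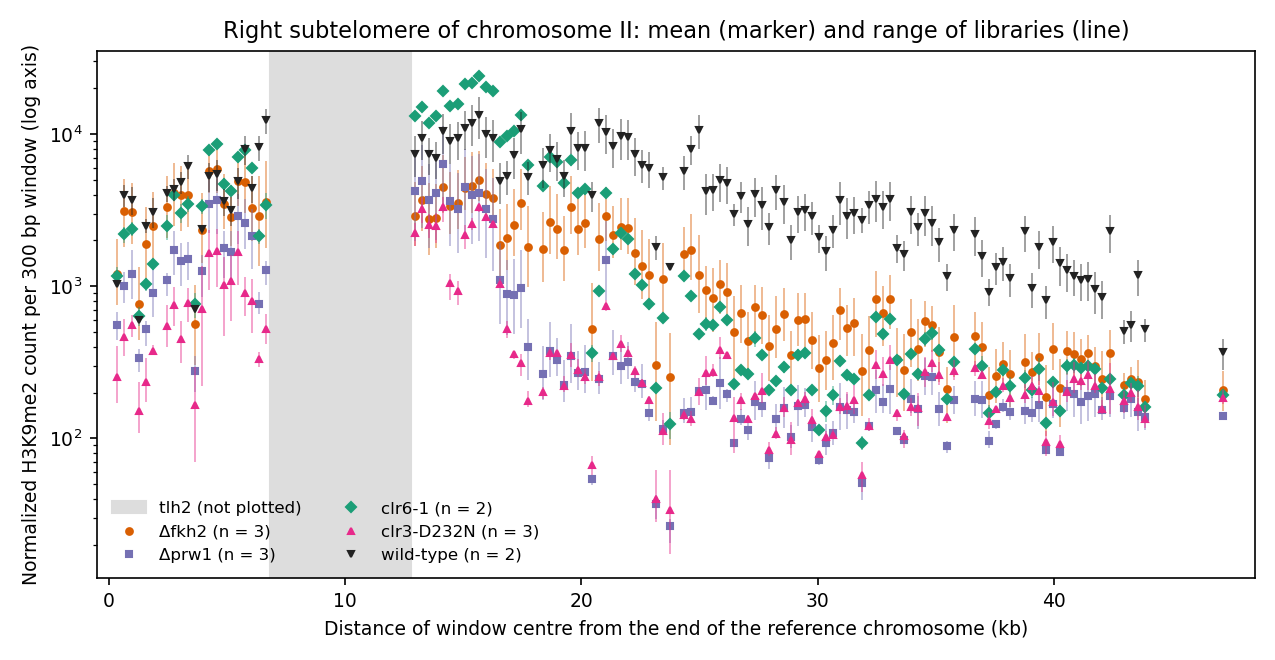
Normalized H3K9me2 count (log axis) of the 120 right-arm windows by distance from the right end; markers are genotype means, lines the range of libraries, and the grey band is tlh2. On the centromere side of tlh2, clr6-1 starts above wild-type and falls below it, while Δprw1 and clr3-D232N drop within 10 kb.

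Next to tlh2 on its centromere side, clr6-1 had on average the most H3K9me2 and clr3-D232N the least. This stretch lies in chrII:4519864-4532546, which is 99.8% identical to the left end of chromosome I. Its counts may therefore hold fragments from there. In the 17 windows 0 to 5 kb from tlh2 the mean per window was 2280, 5547 and 2261 in Δfkh2, 1531, 5502 and 2336 in Δprw1, 14914 and 15503 in the clr6-1 libraries, and 1630, 1871 and 2086 in clr3-D232N, against 11338 and 6223 in wild-type. Both clr6-1 libraries were above both of wild-type and every library of the other mutants was below both, and the signs of the mean differences held under the 3 other scalings. The log2 differences were -1.46 in Δfkh2, -1.64 in Δprw1 (p = 0.2 each), 0.86 in clr6-1 (p = 0.33) and -2.18 in clr3-D232N (p = 0.1, exact permutation tests). Under TMM on the windows they were -0.26, -0.12, 0.98 and -0.37. For clr6-1, edgeR and DESeq2 called 0 of these windows against wild-type, and 0 had an unadjusted edgeR p below 0.05. Against clr6-1 itself, clr3-D232N was called lower in 17 of the 17 windows by edgeR (41.2% of all windows), and Δprw1 in 8 (10.7%). For Δfkh2 against clr6-1 edgeR and DESeq2 called 0 (0.2%), with 17 lower at an unadjusted edgeR p below 0.05.

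The decline away from tlh2 differed between the genotypes in its steepness. The stretch 5 to 10 kb from tlh2 lies in chrII:4513572-4523960, which is 99.2% identical to the right end of chromosome I. It also holds the tlh2 copy window. How far fragments from these copies entered the ratios was not tested. In the 16 windows 5 to 10 kb from tlh2 the mean was 1376, 3460 and 1453 in Δfkh2, 248, 518 and 254 in Δprw1, 3217 and 3351 in the clr6-1 libraries, and 337, 300 and 286 in clr3-D232N, against 10133 and 5682 in wild-type. The log2 ratio of this stretch to the one next to tlh2 was -0.73, -0.68 and -0.64 in Δfkh2, -2.63, -3.41 and -3.20 in Δprw1, -2.21 and -2.21 in the clr6-1 libraries, and -2.28, -2.64 and -2.87 in clr3-D232N, against -0.16 and -0.13 in wild-type. Every mutant library had a steeper fall than wild-type, shallow in Δfkh2 and steep in the other mutants. The ratio differed from wild-type by -0.54 for Δfkh2, -2.93 for Δprw1, -2.06 for clr6-1 and -2.45 for clr3-D232N (exact permutation p = 0.1, and 0.33 for clr6-1). In these 16 windows Δprw1 was called lower than Δfkh2 in 15 (20.3% of all windows) and lower than clr6-1 in 14 (10.7%). In the same windows clr3-D232N was called lower than Δfkh2 in 16 (25.4%) and lower than clr6-1 in 15 (41.2%).

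**Figure D3:**
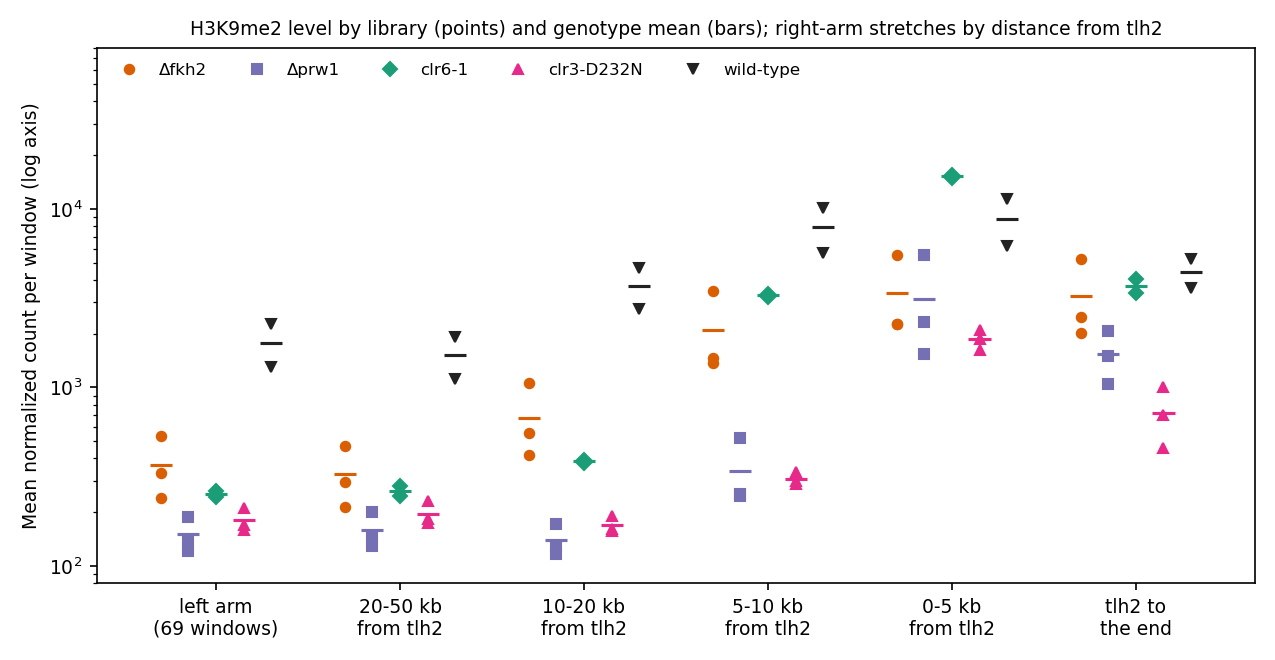
Mean normalized H3K9me2 count per window (log axis) in each library (points) with the genotype mean (short bars), for the left arm and 5 stretches of the right arm. At 0 to 5 kb from tlh2 the 2 clr6-1 libraries, at 14914 and 15503, lie above the wild-type libraries, and at 5 to 10 kb, where they are at 3217 and 3351, they lie below.

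More than 10 kb from tlh2 toward the centromere, every mutant was below wild-type. Most of this stretch, chrII:4492121-4502784 and chrII:4502775-4512923, is 99.6% and 100% identical to the left end. Of the 99 windows on this side of tlh2, 56 had a copy there. Its values may therefore rest largely on the same fragments as those of the left arm. At 10 to 20 kb from tlh2 the 33 windows averaged 678 ± 339 for Δfkh2, 139 ± 29 for Δprw1, 385 ± 10 for clr6-1 and 169 ± 18 for clr3-D232N, against 3699 ± 1332 in wild-type. All 33 were called lower in each of the 4 mutants, against 36.0%, 48.3%, 36.4% and 64.9% of all windows. At 20 to 50 kb the other 33 windows averaged 326 ± 132 for Δfkh2, 159 ± 37 for Δprw1, 264 ± 24 for clr6-1 and 196 ± 31 for clr3-D232N, against 1509 ± 560 in wild-type, with log2 differences of -2.24, -3.22, -2.47 and -2.91. The farthest window, 47.0 kb from the end in SPBPB2B2.14C, was called lower only in Δprw1, at 138, 150 and 133 normalized counts against 451 and 284 in wild-type (log2 fold change -1.39 ± 0.33, edgeR adjusted p = 5.7e-05). Its log2 fold change was -0.81 ± 0.33 in Δfkh2, -0.92 ± 0.37 in clr6-1 and -0.99 ± 0.33 in clr3-D232N. Within a library, the log2 ratio of right windows beyond 20 kb from the end to those within it was -2.18 ± 0.24 for Δfkh2, -3.38 ± 0.48 for Δprw1, -3.99 ± 0.05 for clr6-1 and -2.46 ± 0.44 for clr3-D232N, against -0.97 ± 0.02 in wild-type.

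**Figure D4:**
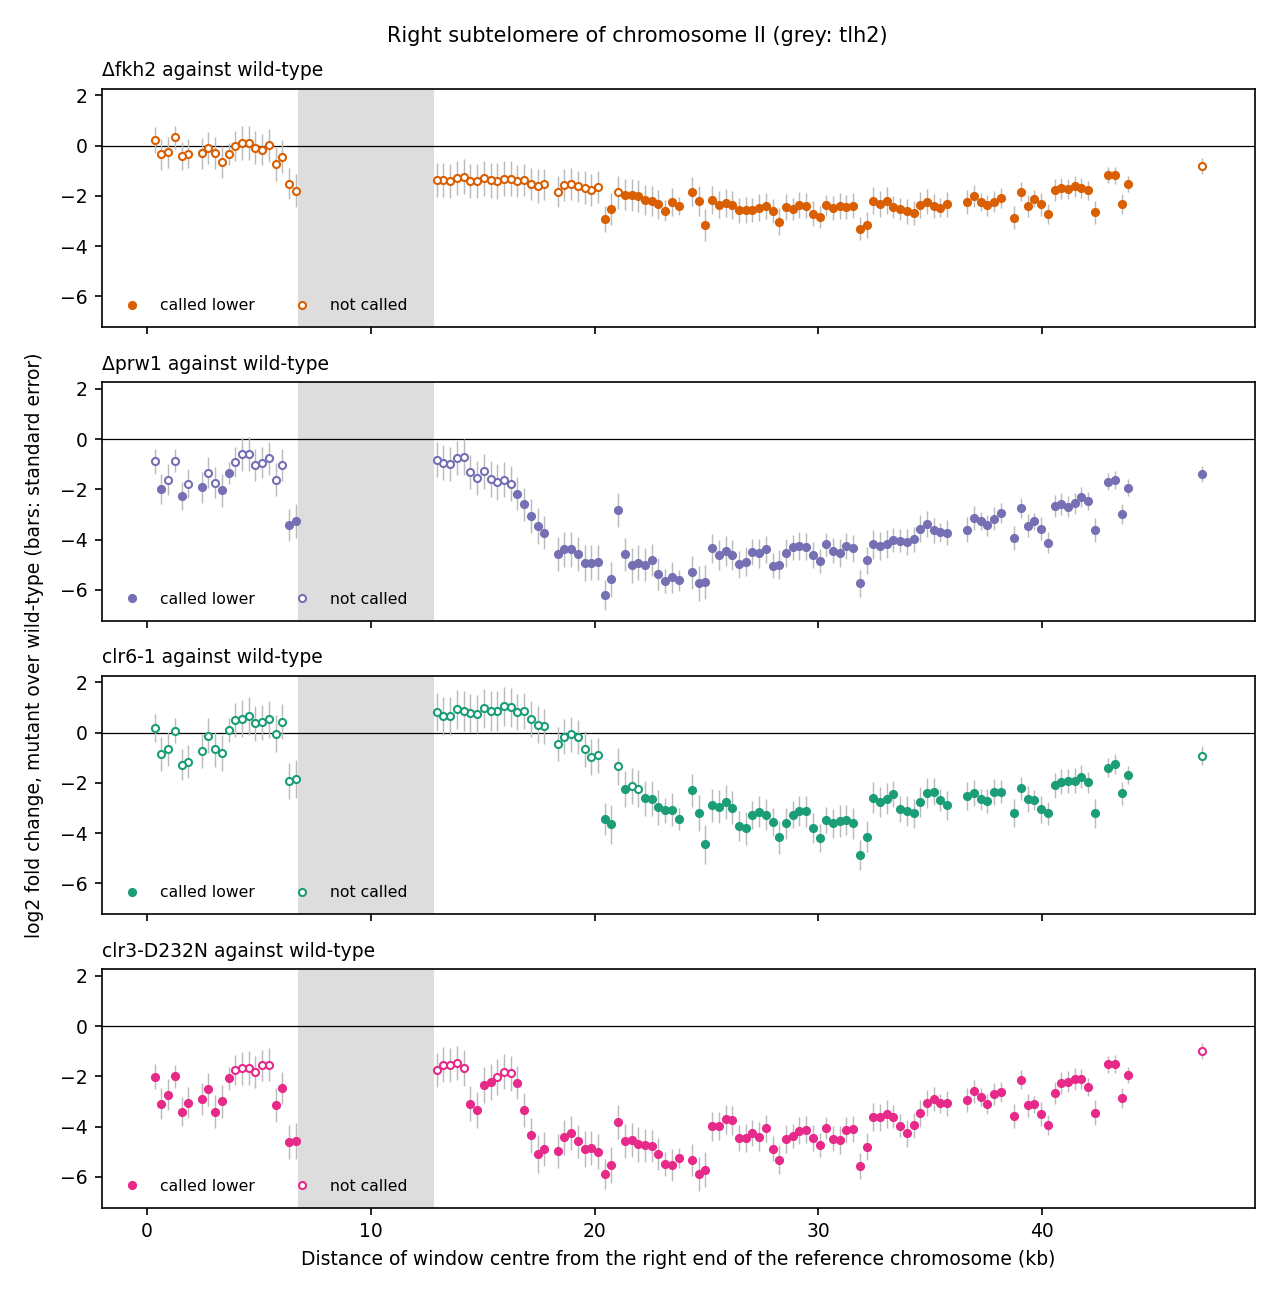
Log2 fold change against wild-type (points, with SE bars) of the right-arm windows in each mutant by distance from the right end; filled points were called lower, open points were not, and the grey band is tlh2. In clr6-1 the windows next to tlh2 on its centromere side lie above 0 up to 1.04 and none of them was called.

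The lowest windows of the right arm were an LTR window and one without annotated features. The LTR window chrII:4507801-4508100 is the right-hand counterpart of the left LTR, whose copy at 100% identity is chrII:4507824-4508123. It held 140, 486 and 211 normalized counts in Δfkh2 and 104 and 83.9 in clr6-1, against 3245 and 2244 in wild-type, with log2 fold changes of -3.30 ± 0.47 and -4.86 ± 0.60 (edgeR adjusted p = 5.3e-10 and 2.4e-13). The window chrII:4519201-4519500 held 57.2, 54.7 and 49.6 in Δprw1 and 65.8, 57.4 and 76.4 in clr3-D232N, against 4854 and 3087 in wild-type. Its log2 fold changes were -6.20 ± 0.60 and -5.90 ± 0.59 (edgeR adjusted p = 4.5e-23 and 1.1e-21). The called windows nearest to no change were chrII:4496701-4497000 in Δfkh2 (-1.16), chrII:4496401-4496700 in clr6-1 (-1.26) and clr3-D232N (-1.50), and the low GC window in Δprw1 (-1.35). Under TMM on the windows the direction turned for Δfkh2, Δprw1 and clr3-D232N.

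The tlh2 copy window had a log2 fold change nearer to 0 than both its neighbours in every mutant, by the smallest steps in Δfkh2. How many other windows did so was not counted, and all mutants were set against the same wild-type libraries. The steps between windows, and their differences between mutants, were not tested. The tlh2 copy window chrII:4518601-4518900 held 1982, 4457 and 2200 normalized counts in Δfkh2, 813, 2679 and 952 in Δprw1, 4224 and 4029 in the clr6-1 libraries, and 807, 725 and 691 in clr3-D232N, against 13356 and 7424 in wild-type. Its log2 fold change in Δprw1 was -2.81 ± 0.67, between -4.59 ± 0.67 in the window before it and -5.58 ± 0.71 in the window after it. In clr6-1 it was -1.33 ± 0.73, between -2.25 ± 0.71 and -3.65 ± 0.77, and in clr3-D232N it was -3.81 ± 0.69, between -4.58 ± 0.67 and -5.53 ± 0.71. The window before it, chrII:4518301-4518600, is also similar to tlh2, at 96.0% identity. In Δfkh2 the window was at -1.85 ± 0.65, close to the -1.95 ± 0.62 before it, and the window after it was at -2.53 ± 0.64. How far fragments from tlh2 were counted in this window was not tested. This window, those at the borders of tlh2 and the innermost window of each arm were chosen for description after their values were seen.

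Between tlh2 and the right end H3K9me2 was lowest in clr3-D232N. The 21 windows averaged 2467, 5258 and 2024 in Δfkh2, 1039, 2061 and 1497 in Δprw1, 4044 and 3359 in the clr6-1 libraries, and 459, 705 and 1003 in clr3-D232N, against 5240 and 3607 in wild-type. The Δfkh2 and clr6-1 libraries overlapped those of wild-type, while those of Δprw1 and clr3-D232N lay below. The log2 differences were -0.55 in Δfkh2 (p = 0.5), which turned to 0.65 under TMM on the windows and to 0.27 with scaling by total count, -1.56 in Δprw1 (p = 0.1), -0.24 in clr6-1 (p = 0.67) and -2.66 in clr3-D232N (p = 0.1, exact permutation tests). Under TMM on the windows those of Δprw1, clr6-1 and clr3-D232N were -0.046, -0.12 and -0.85. Called lower were 7 of 21 windows in Δprw1 (48.3% of all windows) and 15 in clr3-D232N (64.9%). In Δfkh2 and clr6-1 edgeR called 0 (36.0% and 36.4% of all windows), with 2 and 3 windows lower at an unadjusted p below 0.05. DESeq2 called 1 in each. Only 6 of these 21 windows had a copy elsewhere.

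On this side the 3 windows within 1 kb of tlh2 were also described apart from the 18 nearer the end. Within 1 kb the mean was 3239 ± 2196 for Δfkh2, 1397 ± 444 for Δprw1, 3854 ± 590 for clr6-1 and 551 ± 154 for clr3-D232N, against 8319 ± 2259 in wild-type, and the log2 differences were -1.54, -2.60, -1.09 and -3.93. Beyond 1 kb the mean was 3252 ± 1679, 1555 ± 524, 3676 ± 467 and 751 ± 293 in the mutants in the same order, against 3774 ± 971 in wild-type, with log2 differences of -0.31, -1.31, -0.02 and -2.38, all but the last turning positive under TMM on the windows. Within each library of Δprw1 and clr3-D232N the level next to tlh2 was below that nearer the end (990 and 1047, 1870 and 2093, and 1331 and 1524 in Δprw1, and 402 and 468, 540 and 732, and 711 and 1052 in clr3-D232N). It was above it in both clr6-1 libraries (4272 and 4007, and 3437 and 3346) and in 1 of 3 Δfkh2 libraries, and in both wild-type libraries (9917 and 4461, and 6722 and 3087). The window just outside tlh2 on the end side, chrII:4533001-4533300, held 420, 495 and 653 normalized counts in clr3-D232N, against 14717 and 10022 in wild-type. The last tlh2 window, chrII:4532701-4533000, held 556, 919 and 1332 in clr3-D232N, against 8873 and 5023 in wild-type.

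Relative to tlh2 in the same library, the right arm was lower in every mutant. The 20 tlh2 windows averaged 3108, 6673 and 3246 in Δfkh2, 3505, 13488 and 4786 in Δprw1, 16337 and 17122 in the clr6-1 libraries, and 2168, 2620 and 3046 in clr3-D232N, against 11371 and 6146 in wild-type. The log2 ratio of the mean right-arm window to the mean tlh2 window was -1.48, -1.37 and -1.56 in Δfkh2, -2.79, -3.36 and -2.79 in Δprw1, -2.26 and -2.33 in the clr6-1 libraries, and -2.20, -2.33 and -2.34 in clr3-D232N, against -1.0 and -0.88 in wild-type. No mutant library overlapped wild-type (exact permutation p = 0.1, and 0.33 for clr6-1). For Δfkh2 the difference of -0.53 turned to 0.32 when only the 16 right windows without a copy elsewhere were used, all but 1 of them between tlh2 and the end.

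The mutants also differed from each other. Over both arms, clr3-D232N was called lower than Δfkh2 in 88 of 189 windows (25.4% of all windows), 22 of them on the left, and lower than clr6-1 in 58 (41.2%), all 58 on the right. Leaving out clr3-D232N replicate B gave 46 windows against Δfkh2, and leaving out clr6-1 replicate A gave 32 against clr6-1. Δprw1 was called lower than Δfkh2 in 83 windows (20.3%), 28 of them on the left, and lower than clr6-1 in 27 (10.7%), all on the right. These counts were 31 and 16 without Δprw1 replicates C and A, and the second was 59 without Δfkh2 replicate B. In these 4 comparisons edgeR and DESeq2 called 0 windows of either arm higher, and 0 were higher at an unadjusted edgeR p below 0.05. Of all windows edgeR called 4.13% higher in clr3-D232N than in Δfkh2, 5.67% higher than in clr6-1, and 0% higher in Δprw1 than in either. Between clr3-D232N and Δprw1 edgeR called 0 windows (3.33% of all windows were called lower and 7.0% higher), with 17 lower and 0 higher at an unadjusted p below 0.05, 1 called by DESeq2 and 3 by edgeR without Δfkh2 replicate B. Between Δfkh2 and clr6-1 edgeR and DESeq2 called 0 (0.2%), with 21 lower and 27 higher at an unadjusted p below 0.05, and 22 called without Δfkh2 replicate B. These 6 comparisons were each adjusted over 1500 windows.

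Genes were summed where at least 3 windows overlapped them, which gave 9 on the left and 11 on the right. The sums lay below wild-type without overlap of libraries for 17 of the 20 genes with Δfkh2, 19 with Δprw1, 18 with clr6-1 and 20 with clr3-D232N. Of all single windows 65.1%, 59.1%, 44.9% and 75.3% did so. The genes are not separate counts: SPNCRNA.4523 has the same 4 windows as SPBC1348.08C, and SPNCRNA.6640 and SPNCRNA.6641 share windows. The 2 pseudogenes next to tlh2 lay above wild-type in clr6-1 without overlap, as did 30.7% of all single windows. Most windows of these genes have a copy elsewhere, so a gene and its paralogues share fragments.

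Of the gene groups, the Schizosaccharomyces-specific families had 4 members, all below wild-type in every mutant. SPBCPT2R1.04C, a DUF999 family member, had summed counts of 2400, 5590 and 3240 in Δfkh2, 755, 1023 and 654 in Δprw1, 2373 and 2541 in the clr6-1 libraries, and 1470, 1184 and 1169 in clr3-D232N, against 23381 and 13110 in wild-type. Its log2 fold changes were -2.32, -4.46, -2.83 and -3.79. The other DUF999 genes, SPBC1348.01 on the left and SPBCPT2R1.01C on the right, lay in the duplicated block, with log2 fold changes in Δprw1 of -4.08 and -4.18. SPBPB2B2.19C of the 5Tm family had -2.45 for Δfkh2, -3.65 for Δprw1, -2.58 for clr6-1 and -2.97 for clr3-D232N. The left genes ftm5 and ftm6, which encode transmembrane helix proteins, had -3.65 and -3.37 in Δprw1 and -2.51 and -2.29 in Δfkh2. In the block that is identical between the arms, ftm5 lies at the place matching SPBPB2B2.19C, so these genes are not separate counts.

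The 2 transporter genes and the single cell surface gene had log2 fold changes nearer to 0. SPBC1348.05, a transporter gene on the left, had log2 fold changes of -1.72 for Δfkh2, -2.64 for Δprw1, -1.94 for clr6-1 and -2.31 for clr3-D232N. SPBPB2B2.16C, a major facilitator transporter gene at the matching place of the right-hand copy, had -1.69, -2.55, -1.88 and -2.22. The glycoprotein gene SPBC1348.08C, 22.1 kb from the left end, had summed counts of 773, 1252 and 928 in Δfkh2, against 1872 and 1138 in wild-type, and these overlapped. It had -1.14, -1.09 and -0.85 in Δprw1, clr6-1 and clr3-D232N without overlap, and the direction turned in Δfkh2, Δprw1 and clr3-D232N under TMM on the windows. The phospholipase gene SPBC1348.10C was the least changed gene in clr3-D232N, at 939, 781 and 695 against 1636 and 1050 in wild-type (log2 fold change -0.71), a direction that turned to 0.38 when libraries were scaled by total count, and TMM on the windows also turned it in Δfkh2 and Δprw1. No summed gene had the product words chosen for metabolic enzymes.

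In each mutant the gene with the largest loss was a non-coding RNA gene. Such genes made up 8 of the 20 summed genes, and in Δfkh2 they spanned the whole range, from -2.70 to -0.45. SPNCRNA.6640, 21.2 kb from the right end, was the lowest gene in Δprw1 and clr3-D232N. Its summed counts were 1354, 2116 and 1250 in Δprw1 and 1968, 1763 and 1731 in clr3-D232N, against 60777 and 33960 in wild-type, with log2 fold changes of -4.89 and -4.64. SPNCRNA.6637 was lowest in Δfkh2, at 681, 1923 and 909 against 8954 and 5319 in wild-type (-2.70). SPNCRNA.4514, the summed gene nearest the left end, was lowest in clr6-1, at 816 and 845 against 12926 and 6822 in wild-type (-3.50). SPNCRNA.6657, the summed gene nearest the right end, had -0.45 for Δfkh2 with overlap, which turned to 0.37 with scaling by total count, -1.77 for Δprw1, -0.57 for clr6-1 and -2.96 for clr3-D232N, and none of its windows has a copy.

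The 2 pseudogenes next to tlh2 were the only summed genes above wild-type in a mutant, namely clr6-1. Of all single windows, 30.7% had every clr6-1 library above wild-type. The malic enzyme pseudogene SPBCPT2R1.07C had summed counts of 15203, 34737 and 15617 in Δfkh2, 8937, 33575 and 13371 in Δprw1, 103552 and 109446 in the clr6-1 libraries, and 12714, 13343 and 14327 in clr3-D232N, against 72368 and 38894 in wild-type. The log2 fold changes were -1.39, -1.74, 1.0 and -1.98. In clr6-1 both libraries were above both of wild-type (exact permutation p = 0.33, the smallest possible), and edgeR called 0 of its 5 windows, the highest being 1.04 ± 0.78 (adjusted p = 0.30). SPBCPT2R1.10, which adjoins tlh2, had 6211, 22594 and 9864 in Δprw1, against 31284 and 17375 in wild-type, with overlap, and it was the least changed gene in Δprw1 (-1.06, turning to 0.45 under TMM on the windows).

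The 5 kb bins gave the extent of the domains without the window filter. A bin was expressed as a multiple of the library's median bin. The outermost left bin, chrII:1-5000, stood at 3.07, 7.40 and 4.25 in Δfkh2, 1.17, 1.54 and 1.02 in Δprw1, 2.43 and 2.55 in the clr6-1 libraries, and 1.47, 1.27 and 1.24 in clr3-D232N, against 36.1 and 20.6 in wild-type. In Δprw1 and clr3-D232N this bin was thus between 1.02 and 1.54 times the median. The innermost left bin above 2 times the median in all libraries of a genotype reached 10 kb from the end in Δfkh2, 15 kb in clr6-1 and 35 kb in wild-type, and Δprw1 and clr3-D232N had no such bin.

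**Figure D5:**
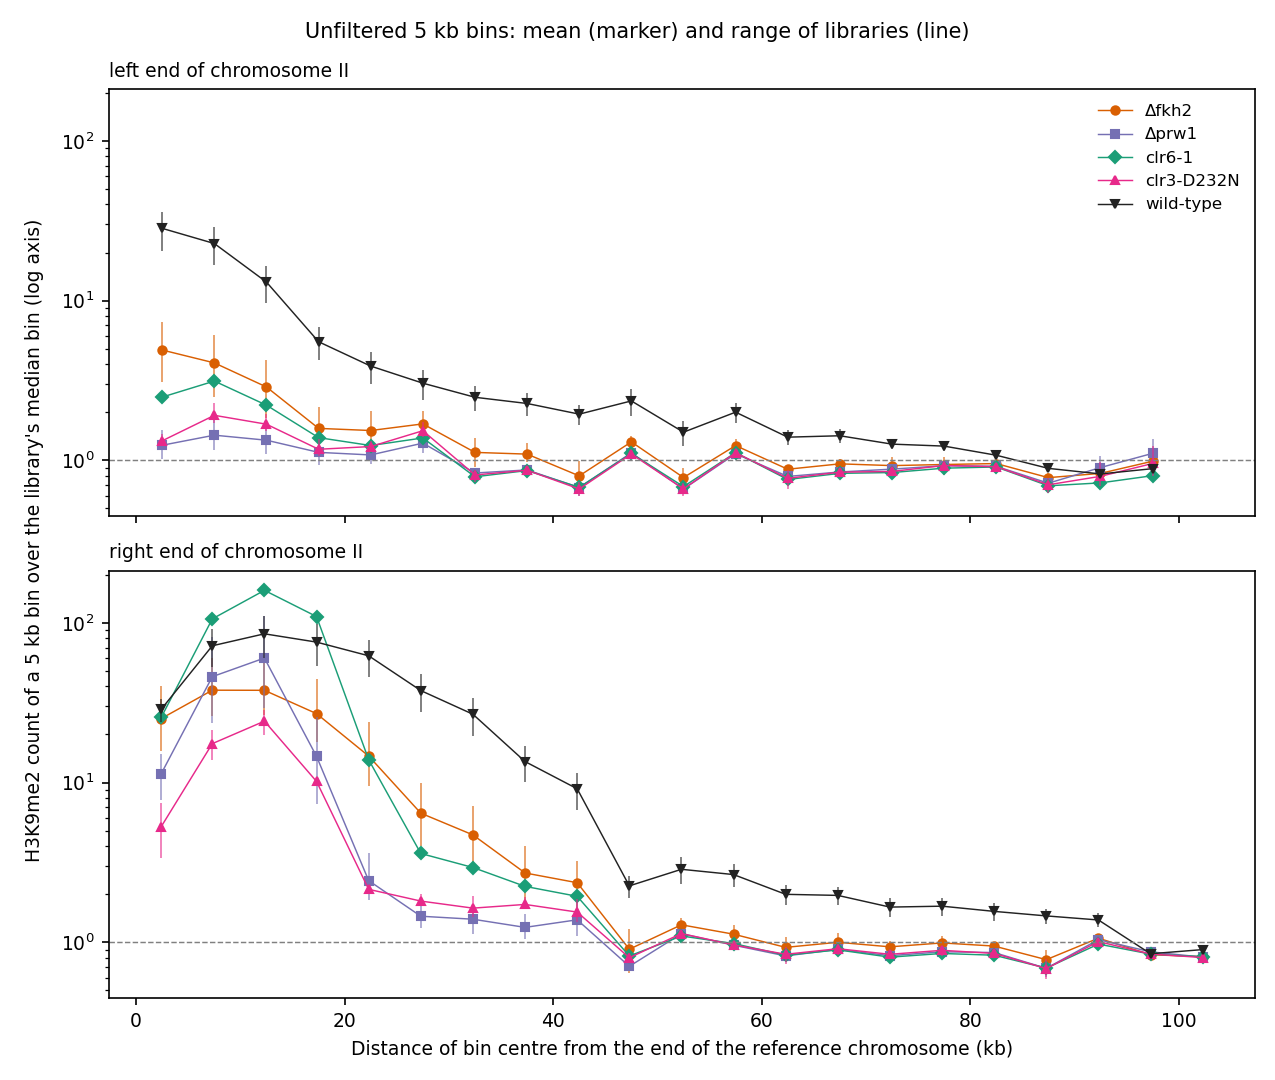
Counts of unfiltered 5 kb bins over the library's median bin (log axis) by distance from the left (top) and right (bottom) end of chromosome II; markers are genotype means, vertical lines the range of libraries and the dashed line the median bin. The bins above 2 times the median reach less far inward in every mutant than in wild-type, where 1 right bin breaks the run, and near tlh2 on the right clr6-1 is highest, at 157 and 162 in the top wild-type bin.

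On the right the highest wild-type bin, chrII:4525001-4530000, which includes part of tlh2, stood at 26.6, 59.7 and 27.1 in Δfkh2, 29.2, 111 and 40.8 in Δprw1, 157 and 162 in the clr6-1 libraries, and 19.9, 24.5 and 28.3 in clr3-D232N, against 110 and 60.2 in wild-type. Bins above 2 times the median in all libraries reached 34.8 kb from the right end in Δfkh2, 19.8 kb in Δprw1, 39.8 kb in clr6-1, 24.8 kb in clr3-D232N and 59.8 kb in wild-type. The wild-type run was broken at chrII:4490001-4495000, which stood at 2.61 and 1.90, and was unbroken in each mutant. Of the 17 bins that overlap the windows, edgeR called 10 lower for Δfkh2 (2.34% of all bins), 12 for Δprw1 (4.17%), 11 for clr6-1 (3.65%) and 12 for clr3-D232N (3.89%). Leaving out wild-type replicate B left 1 bin in Δfkh2, and leaving out clr6-1 replicate A left 1 in clr6-1.

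Bins of the outer 100 kb without any of the windows were also lower in the mutants. The 13 such left bins averaged 0.95 ± 0.12 times the median bin for Δfkh2, 0.87 ± 0.03 for Δprw1, 0.81 ± 0.03 for clr6-1 and 0.84 ± 0.01 for clr3-D232N, against 1.5 ± 0.26 in wild-type. The 11 right bins averaged 0.97 ± 0.09, 0.89 ± 0.02, 0.87 ± 0.03 and 0.89 ± 0.05 in the mutants in the same order, against 1.73 ± 0.31 in wild-type. No mutant library overlapped wild-type at either end (exact permutation p = 0.1, and 0.33 for clr6-1). Of these 24 bins 6 were called lower for Δfkh2 (2.34% of all bins), 10 for Δprw1 (4.17%), 11 for clr6-1 (3.65%) and 10 for clr3-D232N (3.89%).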

How the data were processed

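H3K9me2 ChIP-seq was described in 13 libraries of 5 genotypes, grown for 8 h at 32°C in 60 mL cultures. The authors trimmed the reads (Trimmomatic 0.39), aligned them with Bowtie2 2.4.2 to ASM294v2, removed duplicates (Picard 2.25.2, SAMtools 1.12) and deposited raw counts of fragments per 300 bp window and per 5 kb bin, made with csaw. The input libraries, 15 of the 30 samples, and 2 ChIP samples outside the tables were not analysed here. The study's methods say that a clr6-1 and a wild-type sample were removed as outliers, after clustering and a check for low signal to noise. The spreads given for these genotypes are those of the libraries that were kept. Members, lists and tests were chosen with earlier results of these data known.

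The authors' counts were fitted with edgeR 4.0.16 (R 4.3.3; quasi-likelihood F test, all 5 genotypes in one model, median-of-ratios size factors from the bins, 0.465 to 2.18), and p-values were adjusted over 1500 windows or 2520 bins. A call needed an adjusted p below 0.005 and a log2 fold change beyond 1. DESeq2 1.42.0 was an alternative, its dispersion trend for bins set to a mean. On simulated data, edgeR recovered 50.5% of 200 windows changed 4-fold (Δprw1 against wild-type, 1500 windows) with 0 false calls. The simulated windows were independent, with a common dispersion of 0.15, known size factors and as many raised as lowered. They cannot show errors from the scaling or from real windows that shift together. Levels and ratios were compared by two-sided exact permutation tests over libraries. With 3 against 2 libraries p cannot go below 0.1, and with 2 against 2 not below 0.33. Errors are SDs over libraries unless given as SE. Copies were found with BLAST 2.17.0 (95% identity, 150 bases) in RefSeq ASM294v3, whose chromosome lengths equal those of the tables.

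Named windows were, per arm and mutant, the called windows of lowest and highest log2 fold change without overlap of libraries. Named genes had at least 3 windows and were nearest an end, had a symbol, or were lowest or highest in a mutant. The groups were set by words of the annotated product. Further members of the groups were named as examples. Over windows, deviations from the genotype means gave r from -0.72 to 0.66 for 22 same-letter pairs of libraries (median 0.10). For 45 pairs of other letters r ran from -0.72 to 0.72 (median -0.10). A correlation over windows leaves out a shift of a whole library, so it cannot decide whether letters pair libraries.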

Additional observations from a re-analysis of the deposited data

Results flagged for a closer look

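In the 23 right-arm windows 10 to 20 kb from the end, both clr6-1 libraries lay above both wild-type libraries while every library of the other mutants lay below them. In these windows the log2 difference from wild-type was higher in clr6-1 than in Δfkh2 by 2.17, than in Δprw1 by 2.62 and than in clr3-D232N by 3.13. In the 17 of these 23 windows that lie 0 to 5 kb from tlh2 the same differences were 2.31, 2.49 and 3.04. These differences between mutants were not tested as levels. In the window test by edgeR, clr3-D232N was called lower than clr6-1 in 17 of the 17 windows next to tlh2 (41.2% of all windows). Δprw1 was called lower than clr6-1 in 8 (10.7%) and Δfkh2 in 0 (0.2%), with 17 at an unadjusted p below 0.05 for Δfkh2. Against wild-type, edgeR and DESeq2 called 0 of these windows in clr6-1. The clr6-1 level there gave p = 0.33 against wild-type (exact permutation test), the smallest possible.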

How the results depend on the processing

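Counts of called windows kept to within 1.5 times in 276 of 332 comparisons with an alternative, levels of the whole arms kept their direction in 99 of 100 and within-library ratios in 194 of 200. Over 24 stretches, which overlap, level differences turned in 25 of 288 comparisons with another scaling. Alternatives that drop copies at the other end of chromosome II were added after seeing the data.

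With only the 2 genotypes compared in the model, Δfkh2 had 4 left windows, 4 right windows and 1 bin called lower. Of 14 left windows without a copy at the other end, 3, 11, 5 and 5 were called lower for Δfkh2, Δprw1, clr6-1 and clr3-D232N. Of 64 such right windows 18, 38, 16 and 50 were called in the same order. Of 16 right windows without any near-identical copy 1, 8, 1 and 12 were called, and the left arm had no window to test. These sets hold fewer windows than the arms. Of all windows, 36.0%, 48.3%, 36.4% and 64.9% were called lower in these mutants. TMM on the windows gave 47 right windows in Δfkh2.

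Between mutants, clr3-D232N against Δfkh2 had 12 windows without near-identical copies and 43 without copies at the other end. For clr3-D232N against Δprw1 DESeq2 called 1, TMM on the windows 4, the model of 2 genotypes 2 and an adjusted p below 0.05 gave 6. For clr3-D232N against clr6-1 total-count scaling gave 31, TMM on the windows 21 and no near-identical copy 16. For Δprw1 against Δfkh2 total-count scaling gave 138, the model of 2 genotypes 48, no near-identical copy 2 and no copy at the other end 26. For Δprw1 against clr6-1 the model of 2 genotypes gave 55, the adjusted p below 0.05 gave 56 and no near-identical copy 1. For Δfkh2 against clr6-1 total-count scaling gave 8, TMM on the windows 12, the adjusted p below 0.05 gave 18 and the replicate block 16. The block changed no other count by over 1.5 times. The pairing of clr6-1 and wild-type levels was not possible, since they share only the letter B. The cause of these changes was not tested.

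Directions turned as follows, on the log2 scale. The left-to-right ratio against wild-type became 0.50 in Δfkh2, 0.91 in Δprw1 and 1.82 in clr3-D232N without copies at the other end, and 0.79 in Δprw1 and 0.73 in clr3-D232N with the median window. The right-arm-to-tlh2 ratio became 0.32 in Δfkh2 without near-identical copies. TMM on the windows gave 0.089 (21301, Δfkh2), 0.57 (24901, Δprw1), 0.83 (25201, clr3-D232N), 0.34 (4496401, clr3-D232N), 0.032 (4496701, Δfkh2) and 0.19 (4536001, Δprw1) for windows by start, and total-count scaling gave 0.10 for 25201 in clr3-D232N. For SPBC1348.08C, TMM on the windows gave 0.60 in Δfkh2, 0.37 in Δprw1 and 0.96 in clr3-D232N, and total-count scaling 0.22 in Δfkh2 and 0.24 in clr3-D232N. For SPBC1348.10C they gave 0.54, 0.39 and 1.10, and 0.16 and 0.38. For SPBCPT2R1.10, TMM on the windows gave 0.45 in Δprw1 and 0.25 in clr3-D232N. For SPNCRNA.6657 in Δfkh2, TMM on the windows gave 0.75 and total-count scaling 0.37. Single named windows lost their call in 57 of 313 comparisons.

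Leaving out each library in turn gave 37 to 60 left and 37 to 91 right windows in Δfkh2, 55 to 68 and 84 to 104 in Δprw1, 39 to 60 and 44 to 75 in clr6-1, and 55 to 63 and 99 to 115 in clr3-D232N. Between mutants it gave 46 to 105 for clr3-D232N against Δfkh2, 0 to 3 against Δprw1 and 32 to 68 against clr6-1, 31 to 108 for Δprw1 against Δfkh2 and 16 to 59 against clr6-1, and 0 to 22 for Δfkh2 against clr6-1. Bins ranged over 1 to 11 in Δfkh2 and 1 to 12 in clr6-1. The right-arm level of clr6-1 ranged from -0.73 to 0.036.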
